A study of Mus musculus with 6 samples.

Results

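Genes of the antioxidant defence, of the NRF2 pathway and of glutathione metabolism were compared between immortalized wildtype (WT) and immortalized Alport syndrome (AS) podocytes. The set held 43 genes, listed by symbol and by function, out of the 57132 identifiers of the count table. RNA-seq had been done on 3 WT samples (cell line IMWT, Col4a3+/+) and 3 AS samples (cell line IMAS, Col4a3-/-), all untreated and all derived from 8-week-old male mice. Alport syndrome is an inherited disorder of the basement membrane of the glomerulus, and Col4a3 encodes one of the type IV collagen chains that form this membrane. Both lines had been established from mice that carry the H-2Kb-tsA58 transgene, a temperature-sensitive SV40 large T antigen under the H-2Kb promoter, so that the WT samples carried it too. Per the sample records, cells were grown at 33 °C with 20 U/mL interferon gamma and differentiated for 14 days at 37 °C, whereas the methods of the study give another medium, another interferon concentration and another duration. Each genotype was represented by 1 cell line, and genotype and line cannot be told apart.

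NRF2, encoded by Nfe2l2, is a transcription factor that KEAP1 holds in the cytoplasm and directs to degradation. When cysteines of KEAP1 are modified by oxidants or electrophiles, NRF2 accumulates, pairs with small MAF proteins and binds the antioxidant response element in front of genes for glutathione synthesis, thioredoxin recycling, quinone reduction and conjugation of toxic compounds. Glutathione is a tripeptide that peroxidases use to reduce peroxides and that glutathione transferases attach to electrophiles, and podocytes, which do not divide after differentiation, are known to be sensitive to oxidative injury.

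Total counts lay between 45417221 and 54290968 per sample. Col4a3, the targeted gene, was at 938, 1052 and 1272 CPM (counts scaled by the TMM-adjusted size of the library) in WT and at 62.4, 61.2 and 82.9 CPM in AS (log2 fold change -3.98 ± 0.15 (SE), adjusted p = 1.31e-07). Of the podocyte markers, Nphs1, which encodes nephrin, stayed between 0 and 0.0778 CPM in AS and between 0.455 and 0.473 CPM in WT, so that this defining marker was nearly absent. Of the 14 podocyte markers 12 were tested, with 3 called higher and 6 called lower in AS (75%, beside 40.1% of all genes tested). The 14 summed to 2532 to 2975 CPM in WT and 2159 to 2313 CPM in AS. That sum came mostly from Actn4, Synpo, Kirrel and Nes (means of 810, 803, 480 and 385 CPM in WT). The summed markers of mesangial cells and fibroblasts overlapped (5768 to 7925 and 6842 to 7948 CPM), a sum that came mostly from Acta2, and of the 6 genes in this list, all tested, 1 was called higher in AS (Col1a1, log2 fold change 4.29) and 2 were called lower (Pdgfrb, -1.12, and Thy1, -4.01). Proximal tubule markers summed to 378 to 427 CPM in WT and 281 to 392 CPM in AS, mostly from Lrp2 and Aqp1. Parietal epithelial markers summed to 643 to 672 and 503 to 533 CPM. Macrophage markers (with Adgre1 at 0 counts throughout) summed to 11.2 to 15.0 and 5.11 to 7.02 CPM, mostly from Csf1r. Endothelial markers summed to 0.730 to 1.35 and 0.178 to 0.603 CPM. The part of these differences in the results was not tested, and in bulk RNA fewer cells of a type and less RNA per cell cannot be told apart. WT replicate 1 stood apart from the other WT samples: its counts differed from theirs by a chi-square of 47.5 and 49.9 per degree of freedom. The same value was 9.78 between WT replicates 2 and 3, and 22.4, 18.8 and 19.6 between the AS samples. Without WT replicate 1, 23 of the 25 calls given for the members were kept. Whole chromosomes also differed between the lines, with a median log2 fold change of 0.31 on chromosomes 8 and 10 over all genes tested there.

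Of the 43 genes, 42 had enough counts to be tested, and 25 of them (59.5%) passed an adjusted p of 0.05 in edgeR's quasi-likelihood test of AS against WT. Over the same samples, 40.1% of the 16263 genes tested passed. The called genes were split between 10 higher in AS, against 20.4% of all genes tested that were called higher, and 15 lower in AS, against 19.6% of all genes called lower. A change of more than 2-fold among the called genes was found in 8 members, 3 higher and 5 lower, while 11.2% of all genes tested met the same rule. All WT samples were separated from all AS samples in CPM for 27 members, and the same held for 52.3% of all genes tested. The median log2 fold change of the members was -0.023, beside 0.0061 over all genes, and the median of its absolute value was 0.33, beside 0.28. The differences thus ran in both directions and were, with a few exceptions, smaller than 2-fold. The exceptions were Gclc, Gstp2 and Gstt1, which were higher, and Gpx7, Sod3, Gsta4, Gstm2 and Mgst1, which were lower.

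**Figure D1:**
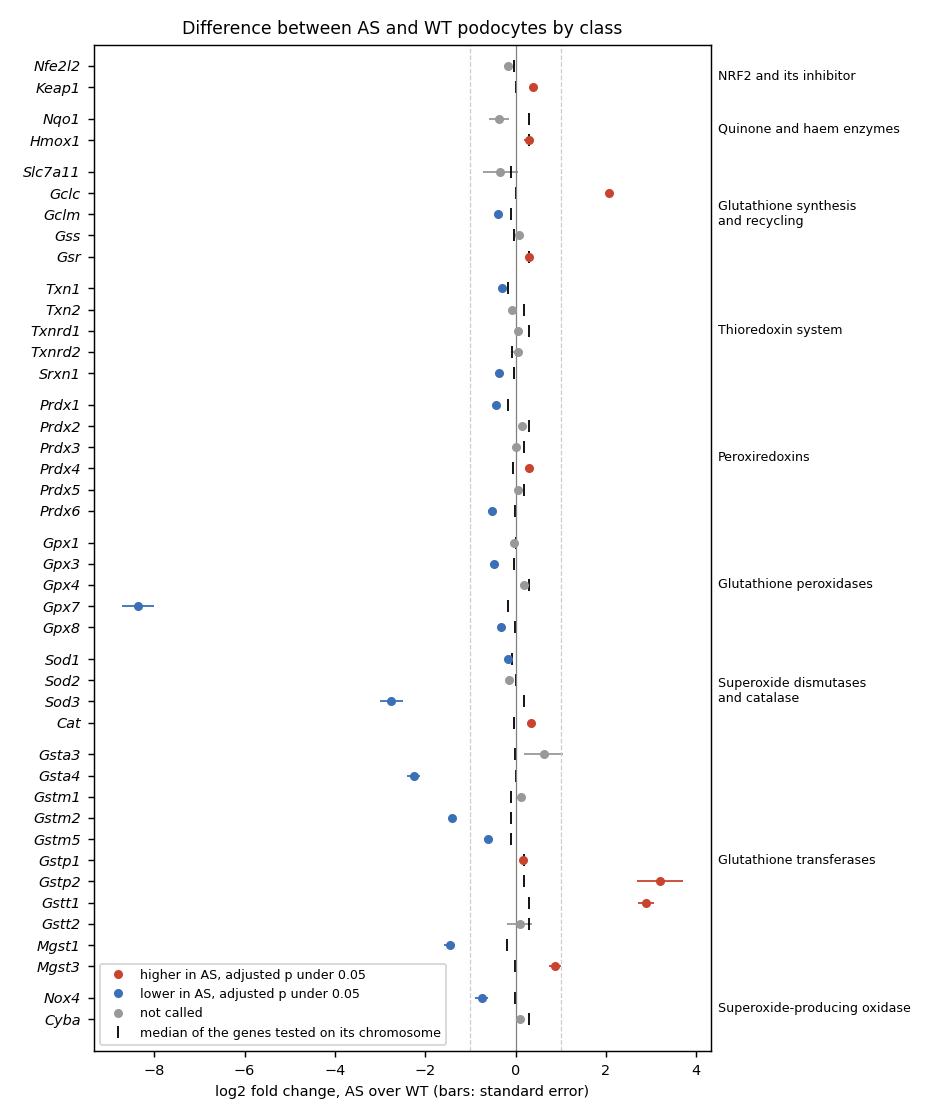
Log2 fold change of AS over WT for the 42 genes tested, grouped by class, with the standard error as a bar and colours for calls at an adjusted p under 0.05; short black lines give the median of all genes tested on the same chromosome and dashed lines a 2-fold change. Most points lie between the dashed lines, with Gpx7 at -8.36 and Gstp2 at 3.20 at the extremes.

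Since NRF2 acts through a short element in front of its targets, the promoters that RefSeq gives for the members (build GRCm38.p6, 250 bases before to 50 bases after the start site) were searched for the core of the antioxidant response element, TGACNNNGC, on both strands. A promoter was given for 36 members. A match was found in 9 of them (25%), beside 3781 of the 27025 genes with a promoter (14.0%). The match was present in 6 of the 12 called lower members with a promoter, in 3 of the 16 that were tested and not called, and in 0 of the 7 called higher. Gclc, Gsr and Hmox1 (called higher), Gsta4, Prdx6 and Sod3 (called lower) and Gstt2 (not called) had no promoter entry. Whether a match goes with the direction of change was not tested. Only this window was searched, so that a promoter without a match does not show that the gene lacks the element. The windows around the match are shown for Mgst1, Gstm5, Prdx1 and Gclm, the 4 members with the largest called change among those with a match before the start site, all of them lower in AS. Each is read from the plus strand with the 9 matching bases in capitals and 30 bases on either side.
Mgst1 (chr6:138140441-138140509, match beginning 56 bases before the start): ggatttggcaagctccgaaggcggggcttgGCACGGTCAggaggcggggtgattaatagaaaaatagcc
Gstm5 (chr3:107895782-107895850, match beginning 42 bases before the start): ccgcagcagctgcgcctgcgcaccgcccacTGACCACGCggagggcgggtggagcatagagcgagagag
Prdx1 (chr4:116685436-116685504, match beginning 133 bases before the start): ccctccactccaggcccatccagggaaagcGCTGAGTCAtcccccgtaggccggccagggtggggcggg
Gclm (chr3:122245393-122245461, match beginning 134 bases before the start): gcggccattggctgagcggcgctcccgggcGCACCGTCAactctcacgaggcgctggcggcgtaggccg
The Prdx1 match also holds TGAGTCA, the core bound by AP-1 factors, so that the letters are shared by 2 motifs. These matches describe the sequence and do not show that NRF2 was bound.

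Expression of Nfe2l2 itself was not called different in the main test. In 1 of the 14 alternative settings, a fit with a block for the replicate number, Nfe2l2 passed as lower (log2 fold change -0.17, adjusted p = 0.0450). WT samples had 67.2, 60.2 and 53.9 CPM of it and AS samples 59.0, 50.7 and 51.2 CPM (log2 fold change -0.17 ± 0.091 (SE), adjusted p = 0.166), and the groups overlapped. Keap1, the inhibitor, was higher in AS, at 43.6, 49.4 and 49.4 CPM against 36.5, 36.0 and 37.1 CPM in WT, which is 1.30-fold (log2 fold change 0.38 ± 0.068 (SE), adjusted p = 0.00186). All 3 AS samples were above all WT samples. An antisense gene, Gm16754, covers 10.9% of the exon bases of Keap1 in GENCODE M21, and without a stated strand setting the reads of both cannot be told apart there. Transcript levels do not measure the amount of NRF2 protein or its place in the cell.

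The 2 classic indicator genes of the pathway did not move together. Nqo1, which encodes a quinone reductase, was at 3.55, 5.75 and 6.22 CPM in WT and 3.29, 4.30 and 4.4 CPM in AS and was not called (log2 fold change -0.37 ± 0.22 (SE), adjusted p = 0.219). Without WT replicate 1, which was the lowest WT sample, Nqo1 passed as lower (log2 fold change -0.58, adjusted p = 0.0193). Hmox1, which encodes haem oxygenase 1, was at 32.7, 44.8 and 36.2 CPM in WT and 46.1, 44.4 and 49.6 CPM in AS, higher by 1.23-fold (log2 fold change 0.30 ± 0.11 (SE), adjusted p = 0.0489), although WT replicate 2 lay above AS replicate 2. This call was the closest to the threshold among the members. It was lost without any one of 5 samples (all but WT replicate 2), and the adjusted p then ran from 0.0716 to 0.159. RLE size factors (adjusted p = 0.0526) and a minimum mean CPM of 1 as the filter (0.0561) also lost it. Both genes are on chromosome 8, where the median log2 fold change of the 890 genes tested was 0.31. With the chromosome medians removed, Hmox1 was at -0.0027 and not called, and Nqo1 was called as lower (-0.67, adjusted p = 0.0426).

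The largest change in glutathione synthesis was in Gclc, which encodes the catalytic subunit of glutamate-cysteine ligase, the rate-limiting enzyme of the pathway. Gclc was at 87.1, 84.1 and 79.5 CPM in the WT samples and at 366, 317 and 371 CPM in the AS samples. The AS samples all lay far above the WT samples, and the difference was 4.21-fold (log2 fold change 2.07 ± 0.075 (SE), adjusted p = 9.34e-08). Gclm, which encodes the modifier subunit of the same enzyme, was lower in AS, at 49.4, 51.3 and 49.0 CPM against 64.6, 61.6 and 69.6 CPM in WT (log2 fold change -0.39 ± 0.062 (SE), adjusted p = 0.00106), again without overlap. The ratio of Gclc CPM to Gclm CPM within a sample was 1.35, 1.36 and 1.14 in WT and 7.41, 6.19 and 7.58 in AS. It was therefore 5.49 times as high in AS (7.06 ± 0.760, SD, n = 3) as in WT (1.29 ± 0.124, SD, n = 3). The ratio compares samples only, since the CPM of different genes also depend on their lengths.

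The other genes of glutathione supply differed less. Gsr, which encodes glutathione reductase, was at 29.6, 31.4 and 33.2 CPM in WT and 36.6, 37.2 and 42.4 CPM in AS (log2 fold change 0.30 ± 0.078 (SE), adjusted p = 0.0130), without overlap. Its difference was about equal to the median of its chromosome, 8, relative to which it was at -0.0036 and not called, and the call was also lost without AS replicate 3 (adjusted p = 0.0520). Gss, which encodes glutathione synthetase, was at 46.6, 58.5 and 56.4 CPM in WT and 56.8, 56.2 and 57.9 CPM in AS (log2 fold change 0.082 ± 0.084 (SE), adjusted p = 0.477), and its count is uncertain, as 15.4% of its exon bases lie opposite other genes (Acss2, Gssos1 and Gssos2). Slc7a11, which encodes the cystine importer of system xc-, was low and variable, at 0.809, 1.97 and 2.77 CPM in WT and 1.67, 1.42 and 1.31 CPM in AS (log2 fold change -0.33 ± 0.38 (SE), adjusted p = 0.528). Its WT samples spanned a wider range than the difference, and it was called lower when WT replicate 1 was left out (-0.70, adjusted p = 0.0477) and turned to 0.079 when WT replicate 3 was left out.

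**Figure D2:**
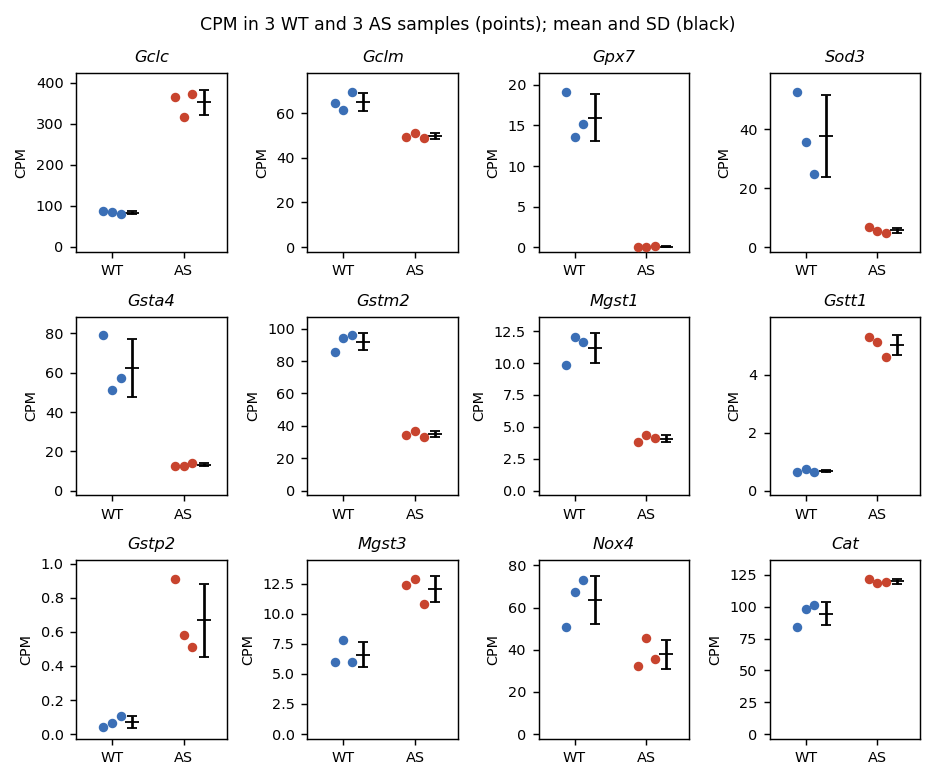
CPM of 12 genes in each of the 3 WT and 3 AS samples (points), with the mean and SD of each group in black and every axis including 0. Gclc lies between 317 and 371 CPM in AS against 79.5 to 87.1 CPM in WT, while Gclm, Gpx7, Sod3, Gsta4, Gstm2, Mgst1 and Nox4 are lower in every AS sample than in any WT sample.

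In the thioredoxin system, 2 of 5 genes passed the test (40%, beside 40.1% of all genes tested), both as lower in AS. Txn1, which encodes the cytosolic thioredoxin, was at 137, 153 and 153 CPM in WT and 111, 127 and 122 CPM in AS (log2 fold change -0.30 ± 0.071 (SE), adjusted p = 0.00827). Srxn1, which encodes the sulfiredoxin that repairs overoxidized peroxiredoxins, was at 26.7, 26.0 and 29.8 CPM in WT and 23.5, 19.7 and 21 CPM in AS (log2 fold change -0.36 ± 0.087 (SE), adjusted p = 0.00885). Neither gene overlapped between the groups. The call of Txn1 was lost with the chromosome medians removed (-0.13, adjusted p = 0.203), as its chromosome, 4, had a median of -0.17. The mitochondrial partner Txn2 and the reductases Txnrd1 and Txnrd2 were not called, and their log2 fold changes lay between -0.083 and 0.062. Txnrd1, the cytosolic reductase and a known NRF2 target, was at 191, 199 and 199 CPM in WT and 218, 198 and 197 CPM in AS. Relative to chromosome 10, on which it lies, it was lower (-0.25, adjusted p = 0.0103), and Txn2 was lower relative to chromosome 15 (-0.28, adjusted p = 0.0223).

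Peroxiredoxins reduce hydrogen peroxide with electrons from thioredoxin or glutathione. Of the 6 genes, 2 were called lower and 1 higher in AS (50%, beside 40.1% of all genes tested). Prdx1, the cytosolic member whose promoter window is among those printed, was at 340.3, 368 and 365 CPM in WT and 259, 270.1 and 261 CPM in AS (log2 fold change -0.44 ± 0.058 (SE), adjusted p = 2.98e-04). Prdx6, which uses glutathione, was at 257, 302 and 323 CPM in WT and 203, 212 and 195 CPM in AS (log2 fold change -0.53 ± 0.083 (SE), adjusted p = 9.21e-04). The samples did not overlap for either gene, and the AS samples were at 73.6% and 69.2% of WT. Prdx4, the peroxiredoxin of the endoplasmic reticulum, was at 19.8, 22.2 and 19.2 CPM in WT and 25.8, 22.7 and 26.5 CPM in AS (log2 fold change 0.29 ± 0.086 (SE), adjusted p = 0.0230). Its call was lost without WT replicate 3, AS replicate 1 or AS replicate 3 (adjusted p between 0.0781 and 0.0927). Prdx2 did not overlap either, at 221, 259 and 261 CPM in WT and 269, 279 and 269.8 CPM in AS, but was not called (log2 fold change 0.14 ± 0.072 (SE), adjusted p = 0.155), and relative to chromosome 8 it was at -0.17. The mitochondrial Prdx3 was at 55.2 ± 3.26 CPM in WT and 55.2 ± 0.845 CPM in AS (mean ± SD, n = 3), and Prdx5 at 154 ± 12.5 and 159.5 ± 11.8 CPM, and neither was called (0.989 and 0.664 as adjusted p). Relative to chromosome 19, whose median was 0.19, Prdx3 was called lower (-0.19, adjusted p = 0.0375), and Prdx5 was at -0.14 and not called. Of the 50-base stretches of Prdx5 and Prdx2 transcripts, 15.5% and 12% occur in another gene, so that their counts are uncertain.

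The glutathione peroxidases held the largest change of the whole set. Gpx7, which encodes a peroxidase of the secretory pathway, was at 19.2, 13.6 and 15.2 CPM in the WT samples and at 0.0444, 0 and 0.0909 CPM in the AS samples. The AS samples held 2, 0 and 5 reads of Gpx7, whereas the WT samples held 971, 635 and 701. The level in AS was 0.305% of that in WT (log2 fold change -8.36 ± 0.36 (SE), adjusted p = 2.93e-07) on 7 reads in AS against 2307 in WT. Without AS replicate 3, which held 5 of these reads, the log2 fold change was -9.42, and over all samples left out in turn it ran from -9.42 to -7.79. None of the 50-base stretches of Gpx7 transcripts occurs in another gene. The nearest tested genes on either side of it were Zyg11b, Coa7, Tut4 and Prpf38a, which were chosen after their values were seen, and their log2 fold changes lay between -0.23 and 0.11 with no call.

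Of the other peroxidases, Gpx3 and Gpx8 were called lower, by less than 2-fold. Gpx3, the secreted form that circulates in plasma, was at 602, 625 and 710.4 CPM in WT and 475, 439.5 and 474 CPM in AS (log2 fold change -0.48 ± 0.076 (SE), adjusted p = 9.26e-04). Gpx8, a membrane protein of the endoplasmic reticulum related to GPX7, was at 96.4, 97.5 and 104 CPM in WT and 79.4, 79.6 and 79.7 CPM in AS (log2 fold change -0.32 ± 0.052 (SE), adjusted p = 0.00112). Both were lower in every AS sample than in any WT sample. Gpx1, the cytosolic form, was at 118, 135 and 146 CPM in WT and 127, 129.6 and 129.7 CPM in AS and was not called (log2 fold change -0.045 ± 0.075 (SE), adjusted p = 0.675). Gpx4, which reduces lipid hydroperoxides and protects from ferroptosis, was at 179.9, 222 and 214 CPM in WT and 230.2, 238 and 232 CPM in AS. It was higher in each AS sample without passing the test (log2 fold change 0.18 ± 0.079 (SE), adjusted p = 0.0909), passed it with no filter on low counts (0.19, adjusted p = 0.0410), and was at -0.12 relative to chromosome 10. Of its 50-base stretches, 34.7% are shared with other genes, mainly Gpx4-ps2, and its count is uncertain for that reason.

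All 3 superoxide dismutases were on the lower side in AS, and 2 of them passed. With catalase, 3 of the 4 genes of this class were called (75%, beside 40.1% of all genes tested). Sod3, the extracellular form, was at 52.7, 35.6 and 24.8 CPM in the WT samples, which differed among themselves, and at 6.64, 5.43 and 4.78 CPM in the AS samples. The highest AS sample was well under the lowest WT sample, and the level in AS was 14.8% of that in WT (log2 fold change -2.75 ± 0.25 (SE), adjusted p = 3.51e-05). The next tested gene on chromosome 5, Ccdc149, chosen after its value was seen, was lower as well (-2.20, adjusted p = 1.0e-05). Sod1, the cytosolic form, was at 195, 198 and 203 CPM in WT and 169, 183 and 176 CPM in AS (log2 fold change -0.17 ± 0.055 (SE), adjusted p = 0.0302), and its call was lost without any one of 4 samples, with an adjusted p of at least 0.0701. The Sod1 call was also lost with library size only (adjusted p = 0.0801), no filter on low counts (0.0611) and the chromosome medians removed (-0.10, adjusted p = 0.185). Sod2, the mitochondrial form, was at 41.6, 40.3 and 40.0 CPM in WT and 35.4, 38.0 and 37.3 CPM in AS and was not called (log2 fold change -0.14 ± 0.060 (SE), adjusted p = 0.0937), and 21% of its 50-base stretches are shared with other genes. Cat, which encodes catalase, was higher, at 122, 118 and 119 CPM in AS against 84.3, 97.8 and 101 CPM in WT (log2 fold change 0.34 ± 0.071 (SE), adjusted p = 0.00415). Its 3 AS samples were close together and above every WT sample.

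**Figure D3:**
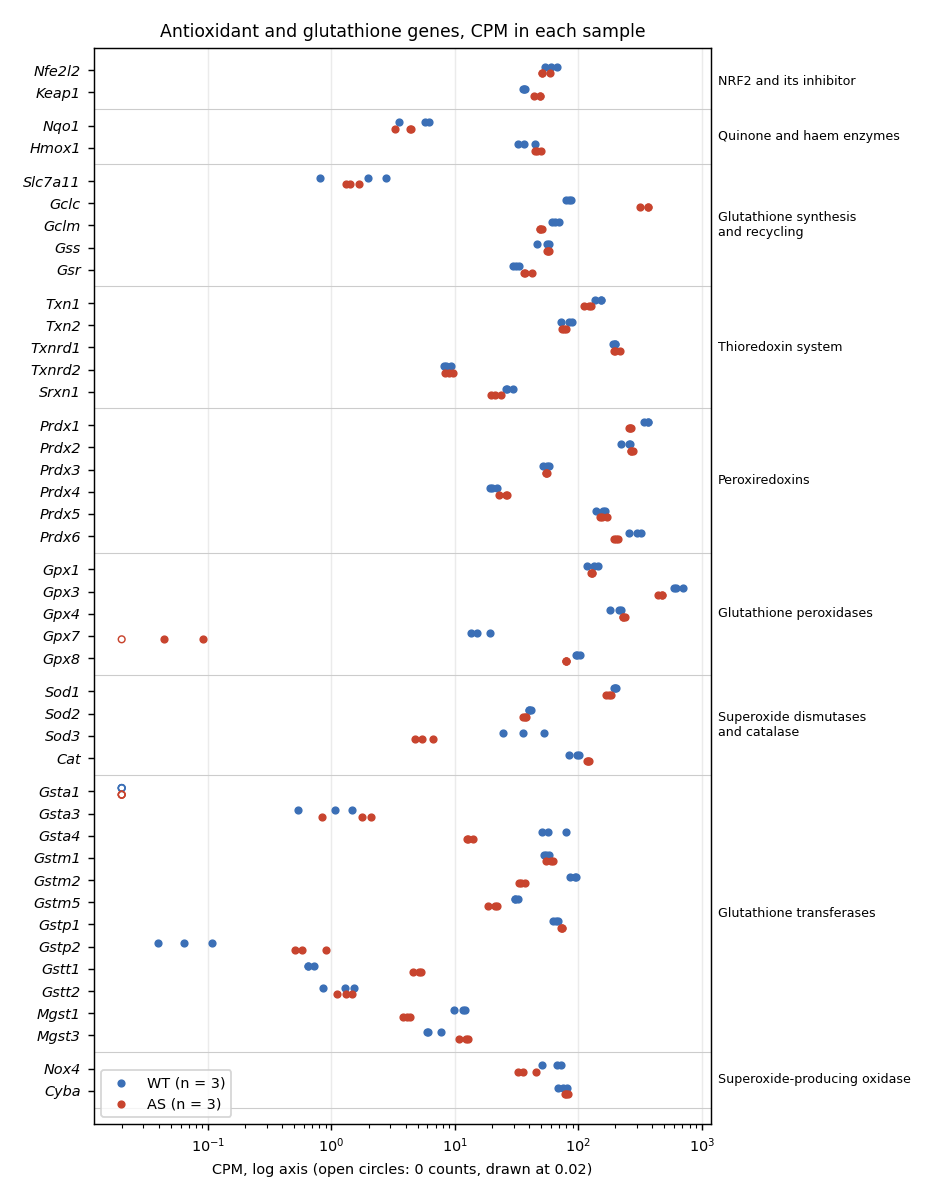
CPM of all 43 genes in each sample on a log axis, with WT in blue and AS in red and 0 counts as open circles at 0.02. The groups separate widely for Gclc, Gpx7, Sod3, Gsta4, Gstm2, Gstp2, Gstt1 and Mgst1, and Gsta1 has no count in any sample.

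Glutathione transferases attach glutathione to electrophiles, and their differences ran in both directions. Of the 12 members 11 were tested, with 4 called higher and 4 called lower in AS (72.7%, beside 40.1% of all genes tested). The median absolute log2 fold change was 0.87 beside 0.28 over all genes. Gsta1 had 0 counts in every sample, which allows up to 0.0209 CPM over the WT group and 0.0198 CPM over the AS group for 3 counts. This limit holds for assigned reads only, since 90.5% of the 50-base stretches of Gsta1 also occur in other genes (75.7% in Gm3776). Gsta4, an alpha-class enzyme that conjugates 4-hydroxynonenal from lipid peroxidation, was at 79.0, 51.1 and 57.3 CPM in WT and 12.6, 12.7 and 14.0 CPM in AS. The AS samples were tightly grouped and at 20.9% of WT (log2 fold change -2.26 ± 0.15 (SE), adjusted p = 4.4e-06). Gsta4 and Gclc, which moved in opposite directions, are both on chromosome 9, whose median was 1.0e-04. Gsta3 was low, at 0.533, 1.07 and 1.47 CPM in WT and 2.11, 0.837 and 1.78 CPM in AS, and its groups overlapped (log2 fold change 0.62 ± 0.42 (SE), adjusted p = 0.278).

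The mu class was lower for 2 of its 3 members. Gstm2 was at 85.8, 94.1 and 95.9 CPM in WT and 34.1, 36.8 and 33.3 CPM in AS, which is 37.8% (log2 fold change -1.40 ± 0.067 (SE), adjusted p = 5.09e-07). Gstm5 was at 30.9, 32.6 and 31.0 CPM in WT and 21.3, 22.0 and 18.5 CPM in AS (log2 fold change -0.61 ± 0.080 (SE), adjusted p = 3.09e-04), although an antisense gene, 4933431E20Rik, covers 13.9% of its exon bases. Gstm1, the third member, was at 52.7, 54.9 and 57.6 CPM in WT and 60.5, 62.8 and 55.1 CPM in AS and was not called (log2 fold change 0.11 ± 0.067 (SE), adjusted p = 0.221). Relative to chromosome 3, whose median was -0.11, Gstm1 was higher (0.22, adjusted p = 0.0305). The mu genes lie in 1 cluster, and the tested genes on either side of Gstm2, named after their values were seen, were also mu genes. Of these, Gstm6 was at 3.41, 5.55 and 5.61 CPM in WT and 0.844, 0.409 and 0.545 CPM in AS (log2 fold change -3.03 ± 0.30 (SE), adjusted p = 6.18e-05). Gstm7 was lower as well (log2 fold change -0.95 ± 0.21 (SE), adjusted p = 0.00582), and so was Gstm4 (log2 fold change -0.54 ± 0.14 (SE), adjusted p = 0.0152). Gstm1 was therefore the one of the 6 tested mu genes that was not called lower, and 18.9% of its 50-base stretches are shared with other genes.

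In the theta class, Gstt1 was higher in AS and its neighbour Gstt2 was not called. Gstt1 was at 0.651, 0.726 and 0.650 CPM in the WT samples and 5.31, 5.14 and 4.62 CPM in the AS samples, a 7.40-fold difference (log2 fold change 2.89 ± 0.18 (SE), adjusted p = 2.96e-06) far beyond the spread within either group. Gstt2 was at 0.848, 1.52 and 1.30 CPM in WT and 1.31, 1.11 and 1.47 CPM in AS (log2 fold change 0.090 ± 0.28 (SE), adjusted p = 0.824), and at -0.22 relative to chromosome 10. Gstt3, on the other side of Gstt1 and named after its value was seen, was at 0.868, 0.726 and 0.932 CPM in WT and 3.33, 3.25 and 2.36 CPM in AS (log2 fold change 1.82 ± 0.23 (SE), adjusted p = 2.42e-04). Less the median of chromosome 10, Gstt1 was still at 2.58 on the log2 scale.

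**Figure D4:**
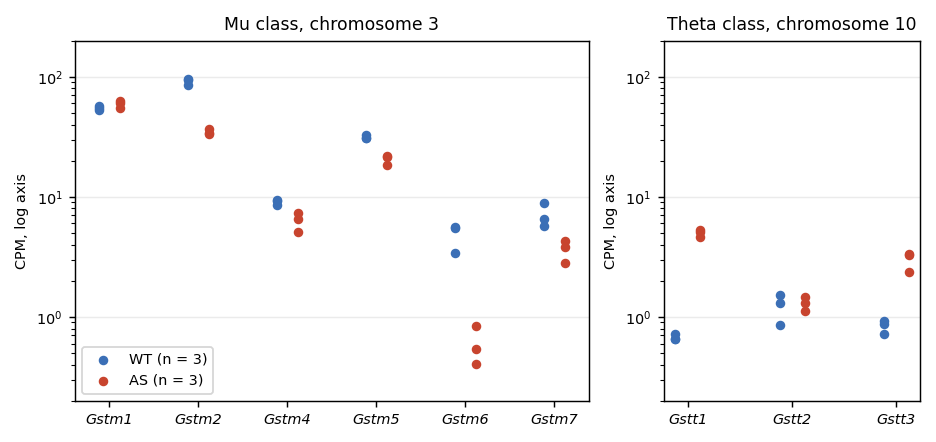
CPM on a log axis of the mu-class genes of chromosome 3 and the theta-class genes of chromosome 10 in 3 WT (blue) and 3 AS (red) samples. Gstm2, Gstm4, Gstm5, Gstm6 and Gstm7 are lower in every AS sample and Gstm1 overlaps, while Gstt1 and Gstt3 are higher in every AS sample and Gstt2 overlaps.

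The pi class and the microsomal enzymes followed no common direction. Gstp1 was at 62.5, 66.1 and 68.7 CPM in WT and 74.3, 73.5 and 72.6 CPM in AS, a difference near the threshold (log2 fold change 0.16 ± 0.056 (SE), adjusted p = 0.0456) that was at -0.031 relative to chromosome 19. The call was lost without any one of 5 samples (all but WT replicate 3; adjusted p between 0.0945 and 0.142), and also with RLE size factors (0.0594), DESeq2 (0.0781) and no filter on low counts (0.0964 as adjusted p). Gstp2 was near the limit of detection in WT, at 0.0394, 0.0641 and 0.108 CPM from 2, 3 and 5 reads, and at 0.910, 0.584 and 0.509 CPM in AS from 41, 30 and 28 reads (log2 fold change 3.20 ± 0.51 (SE), adjusted p = 9.93e-04). Of the 50-base stretches of Gstp2 54.3% also occur in other genes, 49.0% in Gstp1 itself, and 33.7% of those of Gstp1 are shared. Gstp1 held many more reads than Gstp2 in every sample, so that the count of Gstp2 is uncertain. Mgst1, a microsomal transferase whose promoter window is among those printed, was at 9.88, 12 and 11.7 CPM in WT and 3.77, 4.32 and 4.11 CPM in AS, or 36.4% (log2 fold change -1.46 ± 0.13 (SE), adjusted p = 2.48e-05). Mgst3 was higher, at 12.4, 12.9 and 10.8 CPM in AS against 6.02, 7.80 and 6.0 CPM in WT, which is 1.83-fold (log2 fold change 0.87 ± 0.14 (SE), adjusted p = 8.78e-04). The groups did not overlap for Gstp1, Gstp2, Mgst1 or Mgst3.

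On the side of superoxide and hydrogen peroxide production, Nox4 was lower in AS. NOX4 is the NADPH oxidase that is most abundant in kidney, and CYBA (p22phox) is the membrane subunit that stabilizes it. Nox4 was at 51.0, 67.3 and 72.9 CPM in WT and 32.3, 45.4 and 35.6 CPM in AS, or 59.3% (log2 fold change -0.75 ± 0.15 (SE), adjusted p = 0.00330), without overlap. Cyba was at 68.4, 80.9 and 75.3 CPM in WT and 80.0, 82.6 and 78.5 CPM in AS and was not called (log2 fold change 0.10 ± 0.068 (SE), adjusted p = 0.261). Relative to chromosome 8, Cyba was lower (-0.20, adjusted p = 0.0458). Of 12 further NADPH oxidase subunits, 3 had no count in any sample and 5 could be tested. Of those 5, 0 were called by edgeR, DESeq2 or limma-voom, and 0 were under 0.05 in edgeR without adjustment, the smallest unadjusted value being 0.368.

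Several small differences were of the size of the shift of the whole chromosome. Chromosome 8 held Hmox1, Nqo1, Gsr, Prdx2 and Cyba, and 4 of these 5 were above 0 in log2 fold change but 0 were above the median of the chromosome. Over all genes tested on chromosome 8, 79.7% were above 0. Chromosome 10 held Txnrd1, Gpx4, Gstt1 and Gstt2, all above 0, where 78.0% of all genes tested were above 0, and Gstt1 alone was above the median of the chromosome. With the median of each chromosome removed by an offset in the fit, 20 of the 25 called members kept their direction and call. In that fit 26 members were called, 8 higher and 18 lower. Of all 16263 genes tested, 5387 were called in it, 2541 of them higher. The median log2 fold change of the members was then -0.15, beside -6.8e-06 over all genes tested. What shifted whole chromosomes between the lines was not tested.

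**Figure D5:**
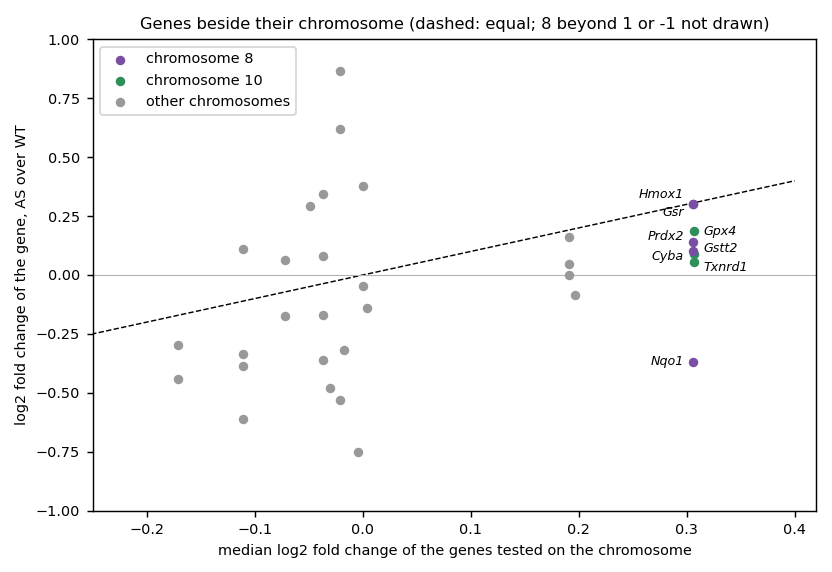
Log2 fold change of each gene tested against the median log2 fold change of all genes tested on its chromosome, with the dashed line where both are equal; 8 genes beyond 1 or -1 are not drawn. The genes of chromosome 8 (purple) and chromosome 10 (green) that are drawn lie on or under the dashed line, from -0.37 for Nqo1 to 0.30 for Hmox1 and Gsr.

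The 8 genes that changed by more than 2-fold were also set beside the tested genes on either side of them, which were chosen after their values were seen. Of 32 neighbours 17 were called and 5 of them changed by more than 2-fold, where 40.1% and 11.2% of all genes tested did so. The neighbours were not all unrelated genes: they include the transferase genes Gstm1, Gstm4, Gstm6, Gstm7, Gstp1, Gstt2 and Gstt3. Of these, Gstm4, Gstm6, Gstm7, Gstp1 and Gstt3 were called, Gstm6 and Gstt3 with a change of more than 2-fold. Gstm1, Gstp1 and Gstt2 are themselves members. Beside Gclc, which was higher, Klhl31, Elovl5 and Gcm1 were called lower (-1.30, -0.34 and -0.80). Beside Gsta4, which was lower, Fbxo9 was lower (-0.69), while Cgas (2.77) and Mto1 (0.52) were higher. Beside Sod3, Ccdc149 was lower and Sepsecs was higher (0.33). Of the 4 neighbours of Gstt1, Gstt3, Ddt (0.71) and Mif (0.73) were called higher, as Gstt1 was. Mgst1 had 1 called neighbour, Plekha5 (-0.23).

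The wider pathway was read from 89 further genes in 4 lists, of which 74 were tested and 35 (47.3%) were called, 16 higher and 19 lower in AS, a share near the 40.1% of all genes tested. Their median log2 fold change was -0.0018. Of 12 NRF2 regulators, all tested, 2 were called higher and 2 lower (33.3%). Maff, a small MAF partner of NRF2, was at 222, 234 and 245 CPM in WT and 122, 127 and 97.3 CPM in AS (log2 fold change -1.02 ± 0.10 (SE), adjusted p = 4.10e-05), whereas Mafk, another small MAF, was higher (log2 fold change 0.31 ± 0.080 (SE), adjusted p = 0.0118). Nfe2l1, a relative of NRF2, was lower by a small amount (log2 fold change -0.18 ± 0.057 (SE), adjusted p = 0.0279), and Rbx1, a subunit of the ubiquitin ligase that KEAP1 recruits, was higher (log2 fold change 0.20 ± 0.056 (SE), adjusted p = 0.0194), although by no more than the median of its chromosome.

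Of 22 other NRF2 target genes 20 were tested, and 15 of these (75%) were called, beside 40.1% of all genes tested. Of the 15, 6 were higher and 9 were lower, where 20.4% and 19.6% of all genes tested were called so. The median log2 fold change of the list was -0.079. Akr1b3, which encodes aldose reductase, was at 128, 137 and 131 CPM in WT and 81.1, 84.4 and 78.6 CPM in AS (log2 fold change -0.70 ± 0.054 (SE), adjusted p = 1.20e-05). Me1, the cytosolic malic enzyme that makes NADPH, was at 145, 151 and 168 CPM in WT and 109, 115 and 107 CPM in AS (log2 fold change -0.48 ± 0.065 (SE), adjusted p = 3.63e-04), and the efflux pump gene Abcc4 was lower (log2 fold change -0.63 ± 0.085 (SE), adjusted p = 3.72e-04). Ephx1, which encodes microsomal epoxide hydrolase, was higher, at 451, 422 and 439 CPM in AS against 330.3, 328 and 327 CPM in WT (log2 fold change 0.41 ± 0.055 (SE), adjusted p = 3.60e-04). The targets therefore did not move in 1 direction.

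In the list of 43 other glutathione and redox genes 37 were tested, and 8 were called higher and 8 lower (43.2%, near the 40.1% of all genes). Glo1, which encodes the glyoxalase that detoxifies methylglyoxal with glutathione, was at 161, 175 and 175 CPM in WT and 81.1, 82.2 and 81.0 CPM in AS (log2 fold change -1.06 ± 0.055 (SE), adjusted p = 8.71e-07). Oplah, which encodes the oxoprolinase of the glutathione cycle, was at 13.9, 20.8 and 18.7 CPM in WT and 6.31, 5.17 and 6.43 CPM in AS (log2 fold change -1.57 ± 0.16 (SE), adjusted p = 6.50e-05). Sesn1, which encodes sestrin 1, was higher, at 32.9, 31.1 and 31.0 CPM against 18.5, 18 and 15.2 CPM in WT (log2 fold change 0.88 ± 0.085 (SE), adjusted p = 4.89e-05), and lies on chromosome 10. For all 3 genes the WT and AS samples were fully separated.

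Across the 14 alternative settings, 19 of the 25 called members, 6 higher and 13 lower, kept their direction and their call in each setting that gave them a value. The 6 higher were Keap1, Gclc, Cat, Gstp2, Gstt1 and Mgst3. The 13 lower were Gclm, Srxn1, Prdx1, Prdx6, Gpx3, Gpx7, Gpx8, Sod3, Gsta4, Gstm2, Gstm5, Mgst1 and Nox4. The calls of Hmox1, Gsr, Txn1, Prdx4, Sod1 and Gstp1 were lost in at least 1 setting. Without WT replicate 1, 23 of the 25 calls were kept, and those of Hmox1 and Gstp1 were lost.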

How the data were processed

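RNA-seq counts of 3 WT and 3 AS samples were analysed. The values are raw counts: the authors deposited, for every gene and sample, an integer number of reads that had not been normalized. Per the labels, mRNA libraries were amplified by 15 PCR cycles. The submitters' processing notes name FastQC, Trim Galore, STAR and edgeR without versions and the genome build mm39, while no source used here gives the counting tool, the annotation release or the strand setting. Of 57132 identifiers, 51880 matched GENCODE M21 (GRCm38) without their version, 35 of them with the same version, and the unmatched held 0.363% of the counts. That annotation served for symbols, chromosomes, gene order, overlaps and shared 50-base stretches only, so that levels were not computed per length and no gene coordinates are given. Promoters were read from RefSeq on GRCm38.p6. Protein sequences were not used here.

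The software was edgeR 4.0.16, with DESeq2 1.42.0 and limma 3.58.1 for alternatives, under R 4.3.3. Low counts were removed by filterByExpr at its defaults (count of 10, total of 15), libraries were normalized by TMM, and AS was compared with WT by the two-sided quasi-likelihood F test of edgeR, without covariates. The p-values were adjusted by Benjamini-Hochberg over all 16263 genes tested, and a gene was called at an adjusted p under 0.05. The study names limma-voom for this contrast, which was an alternative here. Standard errors are approximate, as the ratio of the log2 fold change to the root of its F statistic, and a fold or percentage is the fitted fold change. The scripts were tested on simulated data. With 3 samples per group, 0.10 is the smallest p of an exact permutation test. Labels do not say whether the samples of a line are separate cultures, so that p-values measure only the spread between these samples, which may be technical. The limit of 3 counts covers counting error only, as the deposited values count reads and not molecules.

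The 43 members, the gene lists and the chromosome comparison were chosen with earlier results of these data known. The text names all members, of each pathway list the 4 called genes with the smallest adjusted p and a mean CPM of at least 1, Col4a3 and markers, and other genes only where it says that they were chosen after their values were seen. Alternatives were RLE size factors, library size only, testing without a filter, a minimum mean CPM of 1 as the filter, DESeq2, limma-voom, a replicate block, removal of chromosome medians, and each sample left out in turn.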

Additional observations from a re-analysis of the deposited data

How the results depend on the processing

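The count of called members stayed between 20 and 27 in the 14 alternatives, and that of members changed by more than 2-fold between 7 and 9. The number of all genes called moved as well, from 5120 of 16678 tested (without AS replicate 3) to 7066 of 16263 (replicate block). Members called numbered 20 and 27 in these settings. Of 587 values for single members, 528 had the same sign and the same call as in the report, 27 lost the call, 9 gained it and 23 changed sign. The median log2 fold change of the members, near 0, was 0.0033 with library size only, -0.052 when members under a mean CPM of 1 were left out and -0.15 with the chromosome medians removed. Leaving out single samples gave -0.10 (WT replicate 1) up to 0.034 (WT replicate 3). Members called higher then numbered 6 (without AS replicate 3) to 9. With the chromosome medians removed, the sign changed for Hmox1 (-0.0027), Gsr (-0.0036), Txnrd1 (-0.25), Prdx2 (-0.17), Prdx5 (-0.14), Gpx4 (-0.12), Gstp1 (-0.031), Gstt2 (-0.22) and Cyba (-0.20), which follows from the subtraction of a positive median. Prdx3, near 0, turned to 0.025 with library size only, 0.0025 with no filter and 0.0015 with limma-voom. With samples left out, the sign changed for Slc7a11 (-0.70 to 0.079), Gss (-0.013 to 0.14), Txnrd1 (-0.0024 to 0.084), Txnrd2 (-0.0023 to 0.12), Prdx3 (-0.049 to 0.030), Prdx5 (-0.019 to 0.095), Gpx1 (-0.12 to 0.025) and Gstt2 (-0.12 to 0.27), none of them called with all samples, and the cause was not tested. Low counts limit Gstp2 in WT and Gpx7 in AS.

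The sample titles give both lines the same set numbers, here called replicate numbers, without saying that a set pairs samples. Deviations of same-numbered samples correlated by 0.284, 0.160 and 0.0801 across genes. All but WT replicate 3, which correlated more with AS replicate 2 (0.139), correlated best with their own number. This is a hint of pairing from the data, while the titles do not state what a set is. With the replicate block 27 members were called, Nfe2l2 (-0.17, adjusted p = 0.0450) and Gpx4 (0.19, adjusted p = 0.0401) in addition.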
